A study of Mus musculus with 4 samples.

Results

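Interleukins are secreted proteins through which leukocytes instruct each other to divide, differentiate or die, and each acts on target cells through a receptor built from 1 or more membrane chains. Many chains are shared, so that IL-2, IL-4, IL-7, IL-9, IL-15 and IL-21 all use the common gamma chain, and most receptors pass the signal on through Janus kinases and STAT factors, whereas the IL-1 family signals through MyD88. In B cells, IL-4 drives class switching to IgG1, IL-21 supports the germinal centre and plasma cell fates, and IL-7 acts on the precursors. RIF1 is a replication timing factor that also protects broken DNA ends during class switching, and its occupancy at the genes for these ligands and receptors is described here.

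The set comprised every protein-coding gene of the GENCODE M1 annotation (mm9) on chromosomes 1 to 19 whose symbol is Il followed by a number, which gave 80 of 21418 autosomal coding genes. By symbol, 40 are cytokines, 37 are receptor chains and 3 are neither (the IL-1 antagonist gene Il1rn, the IL-18 binding protein gene Il18bp and the enzyme gene Il4i1). The class of cytokines includes Il1f5, whose product antagonises IL-36, and Il28a and Il28b, older names for type III interferon genes, whose receptor chain Il28ra is counted among the receptors.

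ChIP-seq for HA-tagged RIF1 was performed on splenic B cells isolated with anti-CD43 beads and harvested after 72 h with 5 µg/ml LPS and 5 ng/ml IL-4. Rif1FH cells (2 samples, genotype Rif1FH/FH) carry Flag and HA epitopes at the N terminus of endogenous RIF1, and Rif1WT cells (2 samples, C57BL/6, Rif1WT/WT) carry no tag and were the negative control. Per the study's methods, the tagged mice were also kept on a C57BL/6 background. All cells of both groups received LPS and IL-4, so an unstimulated state was not analysed here. The study kept 1 list of 16332 intervals called in both Rif1FH replicates, with positions only. No value per sample, read depth or replicate error can be given, and the analysis compares genes rather than genotypes.

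Intervals under 50 kb are called peaks here (16043, the widest 14827 bp) and those of 50 kb or more wide intervals (289, the narrowest 90000 bp), which are taken to be the RIF1-associated domains, or RADs. Calls that overlapped a RAD were not counted as peaks by the study, so a gene inside a wide interval has hardly any chance of a listed peak. The absence of a peak means only that none was listed. The list holds no expression values and cannot show which cells were present. Among B cell markers, Cd79b and Pax5 had a peak at the 5′ end, Ebf1 had peaks elsewhere in the gene, and Cd79a and Ms4a1 lay in wide intervals. Of 5 T cell markers (Cd3e, Cd3g, Cd4, Cd8a and Cd5), 0 had a peak and 2 lay in wide intervals. Of 4 myeloid markers (Itgam, Lyz2, Csf1r and Emr1), Csf1r had a peak in the gene and 2 lay in wide intervals.

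Sequences just upstream of 8 of the genes are shown first, because the promoters of the set differed visibly in CpG content. Genes with a peak at the 5′ end, a peak elsewhere in the gene or neither are included, but none in a wide interval. Each run is the 200 bases before the annotated 5′ end on the strand of the gene (mm9), with CpG dinucleotides in capitals. For the receptors Il4ra (chr7:132695585-132695784, plus strand), Il21r (chr7:132746743-132746942, plus strand), Il7r (chr15:9459632-9459831, minus strand) and Il12rb2 (chr6:67326183-67326382, minus strand), a RIF1 peak covered 100% of the bases printed.
Il4ra: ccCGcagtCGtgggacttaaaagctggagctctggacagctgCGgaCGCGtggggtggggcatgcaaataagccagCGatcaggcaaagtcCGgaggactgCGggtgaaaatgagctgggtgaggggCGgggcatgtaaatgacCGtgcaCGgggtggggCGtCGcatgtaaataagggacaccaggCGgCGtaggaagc
Il21r: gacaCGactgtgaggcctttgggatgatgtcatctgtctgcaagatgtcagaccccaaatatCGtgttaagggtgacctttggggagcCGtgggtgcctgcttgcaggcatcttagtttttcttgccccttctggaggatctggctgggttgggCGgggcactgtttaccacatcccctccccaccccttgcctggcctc
Il7r: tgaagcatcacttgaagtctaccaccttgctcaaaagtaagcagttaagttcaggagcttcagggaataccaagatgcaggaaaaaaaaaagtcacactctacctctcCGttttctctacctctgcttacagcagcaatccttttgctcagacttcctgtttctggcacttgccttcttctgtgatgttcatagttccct
Il12rb2: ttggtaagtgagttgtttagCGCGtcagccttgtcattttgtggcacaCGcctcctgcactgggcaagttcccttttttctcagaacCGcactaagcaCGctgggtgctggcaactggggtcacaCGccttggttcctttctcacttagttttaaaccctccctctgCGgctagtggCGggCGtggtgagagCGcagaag

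The Il4ra sequence held 15 CpG dinucleotides and that of Il12rb2 10, against 4 for Il21r and 1 for Il7r, so peaks were listed over upstream sequence of either kind. The next pair are the 2 cytokine genes whose 5′ end was covered by a peak, Il7 (chr3:7613723-7613922, minus strand) and Il15 (chr8:84927122-84927321, minus strand), again covered over 100% of the bases. They held 5 and 3 CpG dinucleotides.
Il7: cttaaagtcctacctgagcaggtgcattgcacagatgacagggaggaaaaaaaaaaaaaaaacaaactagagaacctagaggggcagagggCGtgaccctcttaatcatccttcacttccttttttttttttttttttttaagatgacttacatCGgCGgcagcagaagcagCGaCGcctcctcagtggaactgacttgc
Il15: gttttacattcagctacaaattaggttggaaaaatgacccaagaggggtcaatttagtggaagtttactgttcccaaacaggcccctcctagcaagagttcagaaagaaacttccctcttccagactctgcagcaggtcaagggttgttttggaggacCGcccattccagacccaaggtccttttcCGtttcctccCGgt

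For contrast, Il13 (chr11:53448205-53448404, minus strand) and Il4 (chr11:53432172-53432371, minus strand), the genes of the cytokines most closely tied to type 2 immunity, had no peak over these bases, which held 2 and 0 CpG dinucleotides.
Il13: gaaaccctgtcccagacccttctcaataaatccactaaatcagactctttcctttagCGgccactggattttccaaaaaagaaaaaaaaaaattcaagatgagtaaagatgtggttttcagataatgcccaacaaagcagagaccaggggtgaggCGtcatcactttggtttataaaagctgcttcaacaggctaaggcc
Il4: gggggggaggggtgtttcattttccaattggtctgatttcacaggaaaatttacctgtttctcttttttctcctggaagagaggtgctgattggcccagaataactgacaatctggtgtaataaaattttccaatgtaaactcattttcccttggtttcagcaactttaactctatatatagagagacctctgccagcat

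To ask how often RIF1 lay at the start of an interleukin gene, peaks were counted that reached to within 1 kb of the annotated 5′ end, upstream or downstream, with an overlap of at least 1 bp. Such a peak was present at 14 of the 80 genes (17.5%, 95% Wilson interval 10.7 to 27.3%), against 32.2% of all autosomal coding genes. The receptors had a peak at the 5′ end in 10 of 37 cases (27%, 15.4 to 43%) and the cytokines in 3 of 40 (7.5%, 2.58 to 19.9%), a difference of 19.5 percentage points (95% Newcombe interval 2.55 to 36.2). The difference stayed positive under 11 other settings, but its interval included 0 in 5 of them. Il1rn made up the fourteenth gene. The share of all coding genes lay inside the interval of the receptors and above that of the cytokines. The intervals cover counting error only and treat genes as independent. With no replicate values, no test of the difference between genotypes or samples was possible, and none was made over genes.

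**Figure D1:**
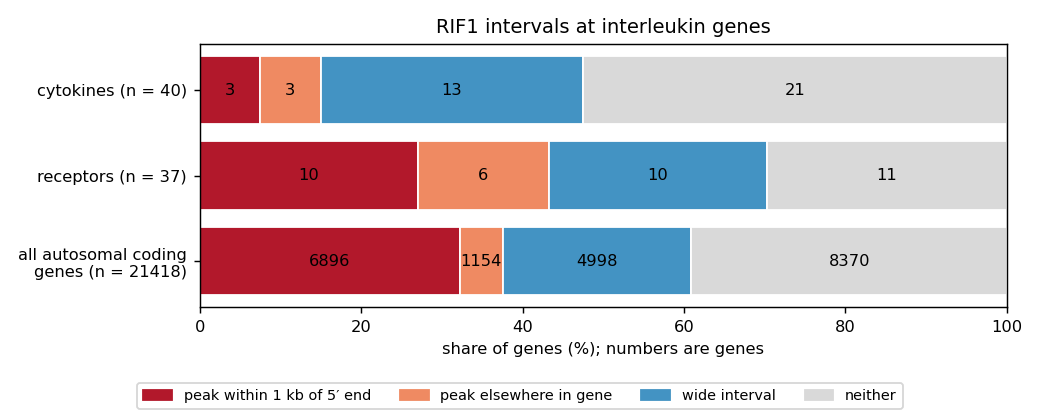
Share of genes (%) in each of 4 exclusive states for cytokines, receptors and all autosomal coding genes, with the number of genes in each part of a bar. A gene with a peak at its 5′ end is counted there first, then a gene in a wide interval, then a gene with a peak elsewhere. Peaks at the 5′ end take 3 of 40 cytokines and 10 of 37 receptors, whereas wide intervals take 13 and 10.

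The 10 receptors with a peak at the 5′ end serve different ligands. Il4ra encodes the chain that binds IL-4, the cytokine added to these cultures, and its peak (chr7:132695559-132696923, 1365 bp) covered the 5′ end, with the midpoint 456 bp into the gene. Il21r, the IL-21 receptor, had a wider peak (chr7:132744452-132747043, 2592 bp) that lay mostly before the gene, with its midpoint at -1196 bp. Il7r, the receptor chain for IL-7 and TSLP, had a peak over the 5′ end (chr15:9459192-9460899, 1708 bp, midpoint at -414 bp) and 2 more in the gene, at 1858 and 6141 bp from the 5′ end. Il7r thus held 3 peaks in 23716 bp.

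Il6ra, the IL-6 binding chain, had the most peaks of any receptor with one at the start, 4 in all. The first (chr3:89716464-89718137, 1674 bp) covered the 5′ end, with its midpoint at -216 bp, and the others lay 1951, 29432 and 40728 bp into the gene. Il12rb2, the signalling chain of the IL-12 receptor (chr6:67325470-67326741, 1272 bp), and Il1rap, the accessory chain shared by receptors of the IL-1 family (chr16:26581001-26582504, 1504 bp), had peaks centred close to the 5′ end, at 77 and -38 bp. Both were covered on each side of the start.

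Il3ra, the IL-3 binding chain, had the widest peak at any gene of the set (chr14:15175487-15180981, 5495 bp, midpoint at -775 bp), which covered the 5′ end of a gene of 8996 bp. Il10ra, the ligand-binding chain for IL-10, had a peak just inside the gene (chr9:45076129-45077104, 976 bp) that began 0.128 kb from the 5′ end and did not cover it. Il1r2, a decoy receptor for IL-1 (chr1:40141260-40144460, 3201 bp), and Il1rl2, the IL-36 receptor (chr1:40381262-40382494, 1233 bp), had peaks reaching into the gene from the start, with midpoints at 1247 and 406 bp.

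Among cytokines, the genes with a peak at the start were Il7, Il15 and Il12b. Il7, a survival factor for lymphocyte precursors (chr3:7612424-7614132, 1709 bp, midpoint at 444 bp), and Il15, which maintains natural killer and memory T cells (chr8:84925783-84927485, 1703 bp, midpoint at 487 bp), had peaks of nearly equal width and position. Il15 held a further peak 20030 bp into the gene. The peak at Il12b, the p40 subunit shared by IL-12 and IL-23 (chr11:44212213-44212794, 582 bp), was the narrowest of the 14 and lay upstream, its edge 0.771 kb from the 5′ end. Il1rn likewise had its peak upstream (chr2:24190668-24192251, 1584 bp), with the edge 0.122 kb away.

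The peaks at the 14 genes were 582 to 5495 bp wide, with a median of 1629 bp. Of these, 11 covered the annotated 5′ end, the exceptions being those of Il10ra, Il12b and Il1rn. Midpoints lay upstream in 7 and downstream in 7, with a median at 19.5 bp. The start of another coding gene lay within 1 kb of 0 of the 14 peaks. Just inside the limit of 1 kb was Il12b, and just outside it were Il13 (1.19 kb from the nearest edge), Il9r (1.27 kb) and Il17rc (1.28 kb).

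**Figure D2:**
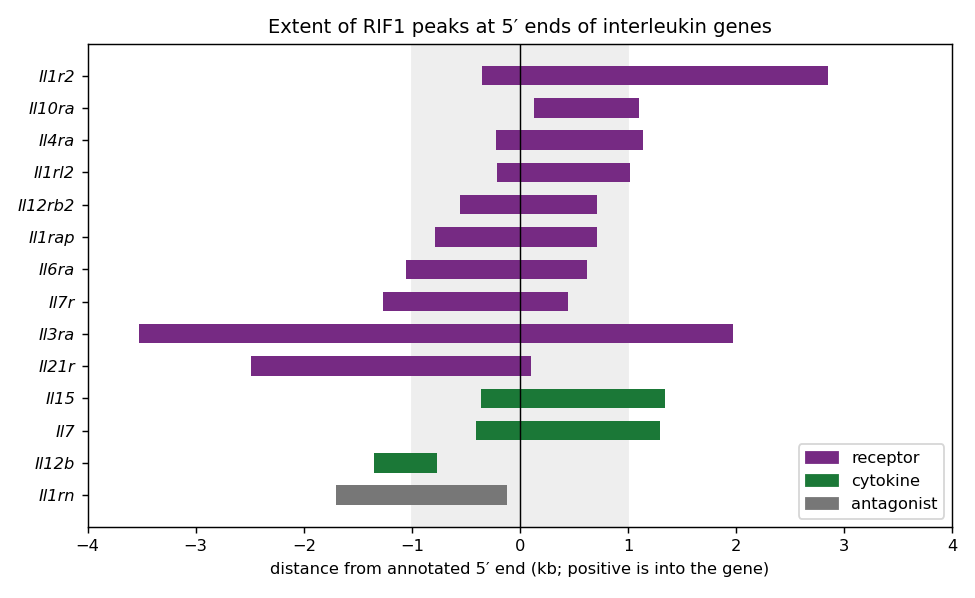
Extent of the peak at each of the 14 genes with one at the 5′ end, as distance from the annotated 5′ end in kb, with positive values into the gene and the 1 kb to either side shaded. Bars for 11 genes cross the 5′ end, and those of Il10ra, Il12b and Il1rn lie to one side.

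Peaks over any part of the gene were counted next, including those at the 5′ end that overlap it. A peak overlapped the gene in 21 of 80 genes (26.2%, Wilson interval 17.9 to 36.8%), against 36.2% of all autosomal coding genes. These were 16 of 37 receptors (43.2%, 28.7 to 59.1%) and 5 of 40 cytokines (12.5%, 5.46 to 26.1%), a difference of 30.7 percentage points (Newcombe interval 10.8 to 48.1). With peaks in the gene or at its 5′ end counted as 1 class, the numbers were 16 receptors and 6 cytokines, and 23 of all 80 genes (28.8%, against 37.7% of coding genes). Genes with a peak over the gene and none at the 5′ end numbered 9 (11.2%, against 5.53% of coding genes). The rest of the 21 genes had already been counted at the 5′ end. The 9 were 6 of 37 receptors (16.2%) and 3 of 40 cytokines (7.5%). That difference was 8.72 percentage points, with a Newcombe interval that included 0 (-6.32 to 24.4).

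The 6 receptors of this kind were Il1r1, Il9r, Il11ra1, Il17ra, Il17rc and Il17re. Il1r1, the signalling receptor for IL-1, held 2 peaks, at 11417 and 37964 bp from its 5′ end. Il17ra, the chain common to receptors of the IL-17 family, held 1 peak at 8313 bp (chr6:120420435-120422622), and Il9r 1 at 3565 bp (chr11:32095884-32097544). The peak of Il17re lay near the end of that gene, at 11172 bp, and that of Il17rc overlapped the start of the neighbouring gene Creld1. Il11ra1 had 4 peaks, yet each met only 1 of its 10 annotated transcripts, one that stretches the gene to 69327 bp and across 6 other coding genes. Of the 4 peaks, 3 lay within 1 kb of the start of another gene (2810432D09Rik, Arid3c and Galt), so they cannot be assigned to Il11ra1 alone.

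The 3 cytokines were Il4, Il16 and Il33. Il16, which encodes an unusual cytokine released from a larger precursor, held 5 peaks in 102879 bp. Of these, 4 lay together at 84747 to 99821 bp from the 5′ end, towards the 3′ end of the gene, and were up to 4475 bp wide. The 3624 bp peak among them (chr7:90802063-90805686) covered the 5′ end of a short annotated transcript. Il33, an alarmin of the IL-1 family, held 3 intronic peaks at 12871, 15815 and 23454 bp. Il4 held 2 peaks (chr11:53418744-53419720 and chr11:53422351-53423942), at 12939 and 9025 bp from its 5′ end. Both met only 1 of 4 transcripts and 0 of the 3 coding ones, and thus lay outside the coding transcripts.

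Across the 80 genes, 40 peaks were listed at the 5′ end or over the gene, 408 to 5495 bp wide with a median of 1506 bp. Away from the 5′ end there were 26, in 12 genes, of which 19 were centred in introns and 7 in exons. Of the 26, 4 lay within 1 kb of the start of another coding gene, namely 3 of those in Il11ra1 and the one in Il17rc.

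Gene length differed between the classes, as cytokine genes had a median length of 6.52 kb, receptor genes 29.1 kb and all coding genes 15.5 kb. A longer gene meets more peaks. Among genes of 5 to 15 kb, a peak overlapped the gene in 4 of 10 receptors and 0 of 19 cytokines, against 30.3% of all coding genes of that length. In longer genes the order was the opposite, with 5 of 15 receptors and 2 of 3 cytokines at 15 to 40 kb (all coding genes 43.5%), and 7 of 12 receptors and 3 of 4 cytokines over 40 kb (57.4%). At the 5′ end, where the window is of equal size for every gene, the class of 5 to 15 kb had a peak in 1 of 10 receptors and 1 of 19 cytokines, against 28.1%, and that of 15 to 40 kb in 4 of 15 and 0 of 3, against 39.6%. Of genes over 40 kb, 5 of 12 receptors and 2 of 4 cytokines had a peak at the 5′ end, against 47.7%. All 14 cytokine genes under 5 kb were without one, against a share of 13.1% of coding genes with a peak. The part of length in the difference between the classes was not tested.

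Wide intervals showed another pattern. They overlapped 24 of the 80 genes (30%, Wilson interval 21.1 to 40.8%), against 23.6% of all coding genes, and in every case reached the window at the 5′ end as well, where the coding share was 23.1%. Here cytokines and receptors were alike in number, with 13 of 40 (32.5%) and 10 of 37 (27%). The difference of -5.47 percentage points (receptors minus cytokines, Newcombe interval -24.8 to 14.7) included 0, an interval too broad to show that the classes are equal. The remaining gene was Il4i1, an amino acid oxidase gene induced by IL-4.

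The cytokines in wide intervals included all 4 genes of the IL-10 cluster, Il24, Il20, Il19 and Il10, which lay together in 1 interval (chr1:132600001-133180000, 580000 bp, 15 coding gene starts). Il10 encodes an anti-inflammatory cytokine that B cells can also secrete, and the nearest peak was 358 kb from its 5′ end. Il6, a driver of plasma cell survival, lay in an interval of 440000 bp (chr5:30020001-30460000) with 7 coding gene starts. Il12a, the p35 subunit of IL-12, lay in one of 280000 bp with 3. The type III interferon genes Il28a and Il28b shared an interval of 2364000 bp with 87 starts, and Il22, Il23a, Il27, Il11 and Il31 each lay in an interval of their own.

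Among receptors, the alpha and beta chains of the IL-2 receptor were found in wide intervals. Il2ra, the alpha chain that activated lymphocytes gain, lay in 1 interval with the start of Il15ra (chr2:11232001-11646000, 414000 bp), which ended inside the latter gene. Il2rb, the beta chain shared by IL-2 and IL-15, lay in an interval of 2618000 bp (chr15:78040001-80658000) with 68 coding gene starts. Il28ra and Il22ra1 shared the widest interval, of 3600 kb. Il12rb1, Il27ra, Il10rb and Il17rd were also overlapped, as was Il17rb, whose interval began inside the gene (chr14:30816001-31480000). In total 18 wide intervals met the set, 280 to 3600 kb wide with a median of 756 kb.

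Chains that work together were in the same state for some receptors and in different states for others. Il2ra and Il2rb, of the IL-2 receptor, both lay in wide intervals, as did Il28ra and Il22ra1 with their partner Il10rb. The common gamma chain gene Il2rg, on the X chromosome and outside the set, had neither a peak nor a wide interval over it. Both chains of the IL-18 receptor (Il18r1 and Il18rap) and Il20ra with Il20rb had neither kind of interval, and Il17ra, Il17rc and Il17re each had a peak over the gene only. Il17rb and Il17rd, of the same family, were overlapped by wide intervals instead. Of the IL-12 receptor, Il12rb2 had a peak at its 5′ end and Il12rb1 lay in a wide interval, and of the IL-10 receptor, Il10ra had the peak and Il10rb the wide interval. Of the IL-6 receptor, Il6ra had 4 peaks, whereas Il6st, the signalling chain gp130, had neither kind, with the nearest peak 35.4 kb away and the nearest wide interval 5.22 kb away. The subunits of IL-12 and IL-23 differed likewise, with a peak upstream of Il12b and wide intervals over Il12a and Il23a. For IL-27, both Il27 and Il27ra lay in wide intervals. These are single genes and were not tallied over all receptors or tested.

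Neither kind of interval was listed for 33 of the 80 genes (41.2%, against 39.1% of coding genes). They comprised 21 of 40 cytokines (52.5%) and 11 of 37 receptors (29.7%), together with Il18bp. The 5 closest to a peak were Il13 (1.19 kb from the 5′ end to the nearest edge), Il1b (1.75 kb), Il5ra (3.81 kb), Il1a (4.6 kb) and Il9 (4.8 kb). The 5 farthest were Il11ra2 (282 kb), Il2 (154 kb), Il1f8 (151 kb), Il18rap (134 kb) and Il1f9 (118 kb). For Il5 and Il3, growth factors of eosinophils and myeloid precursors, the distances were 11.5 and 42.4 kb.

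Over all genes, the median distance from the 5′ end to the nearest peak was 50.9 kb for cytokines, 21.6 kb for receptors and 39.7 kb for coding genes, with ranges of 0 to 1008 kb and 0 to 1223 kb in the first 2. The ranges of both classes overlapped. Calls overlapping a RAD were not counted as peaks, so genes in wide intervals tend by construction to lie far from a listed peak. Most genes of both classes with no peak within 100 kb lay in wide intervals. These distances and counts thus do not separate wide intervals from a lack of listed RIF1. Within 100 kb of the 5′ end, the median number of peaks was 1.5 for cytokines, 3 for receptors and 1 for coding genes, and 16 cytokines (40%) and 9 receptors (24.3%) had none, against 40.1% of coding genes. The most were 12 at Il4ra, followed by 10 each at Il7r and Il10ra.

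**Figure D3:**
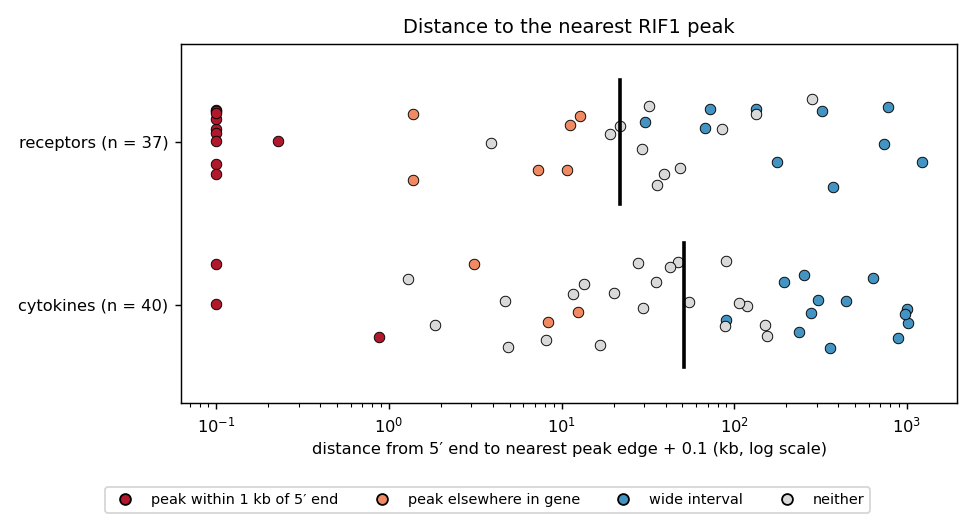
Distance in kb from each gene's 5′ end to the edge of the nearest peak, plus 0.1, on a log axis, for cytokines (n = 40) and receptors (n = 37). Points are genes coloured by state and black lines are medians (50.9 and 21.6 kb before the 0.1 is added). Most genes in wide intervals lie to the right, and the farthest genes are at 1008 kb among cytokines and 1223 kb among receptors.

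Many genes of the set lie in clusters, so neighbours are not independent. Counting genes of 1 class less than 250 kb apart as 1 locus, a peak at a 5′ end was found at 8 of 25 receptor loci (32%) and 3 of 27 cytokine loci (11.1%), and a peak over a gene at 12 of 25 and 5 of 27. Wide intervals met 8 of 25 receptor loci and 9 of 27 cytokine loci. By locus the difference at the 5′ end was 20.9 percentage points with a Newcombe interval that included 0 (-1.61 to 41.8), unlike that by gene, and the difference over the gene was 29.5 points (3.92 to 50.7).

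The Il4ra and Il21r pair on chromosome 7 had 5 peaks in 81.3 kb, of which 2 lay at the gene starts and 3 between the genes, at 21.8, 8.90 and 2.92 kb before Il21r. By comparison, the receptor cluster of the IL-1 family on chromosome 1, which holds Il1r2, Il1r1, Il1rl2, Il1rl1, Il18r1 and Il18rap, had 5 peaks in 467 kb. All lay in its first 3 genes or before Il1rl1, and the last 3 genes (Il1rl1, the IL-33 receptor, and both chains of the IL-18 receptor) had no peak over them.

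The type 2 cytokine cluster on chromosome 11, Il4, Il13 and Il5, had 4 peaks in 122 kb. Of these, 2 lay in the long noncoding transcript of Il4, 1 lay 1.19 kb upstream of Il13 (chr11:53449389-53450173, 785 bp) and 1 covered the start of Rad50 (chr11:53520014-53522789, 2776 bp), a DNA repair gene located between Il13 and Il5. None met a coding transcript of the 3 cytokine genes. The IL-1 family cytokine cluster on chromosome 2, from Il1f8 to Il1rn, had 3 peaks in 198 kb, all of them between Il1f10 and Il1rn. The pairs Il2 with Il21 (112 kb) and Il17a with Il17f (53.4 kb), which are the products of activated T cells, held 0 peaks and 0 wide intervals.

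**Figure D4:**
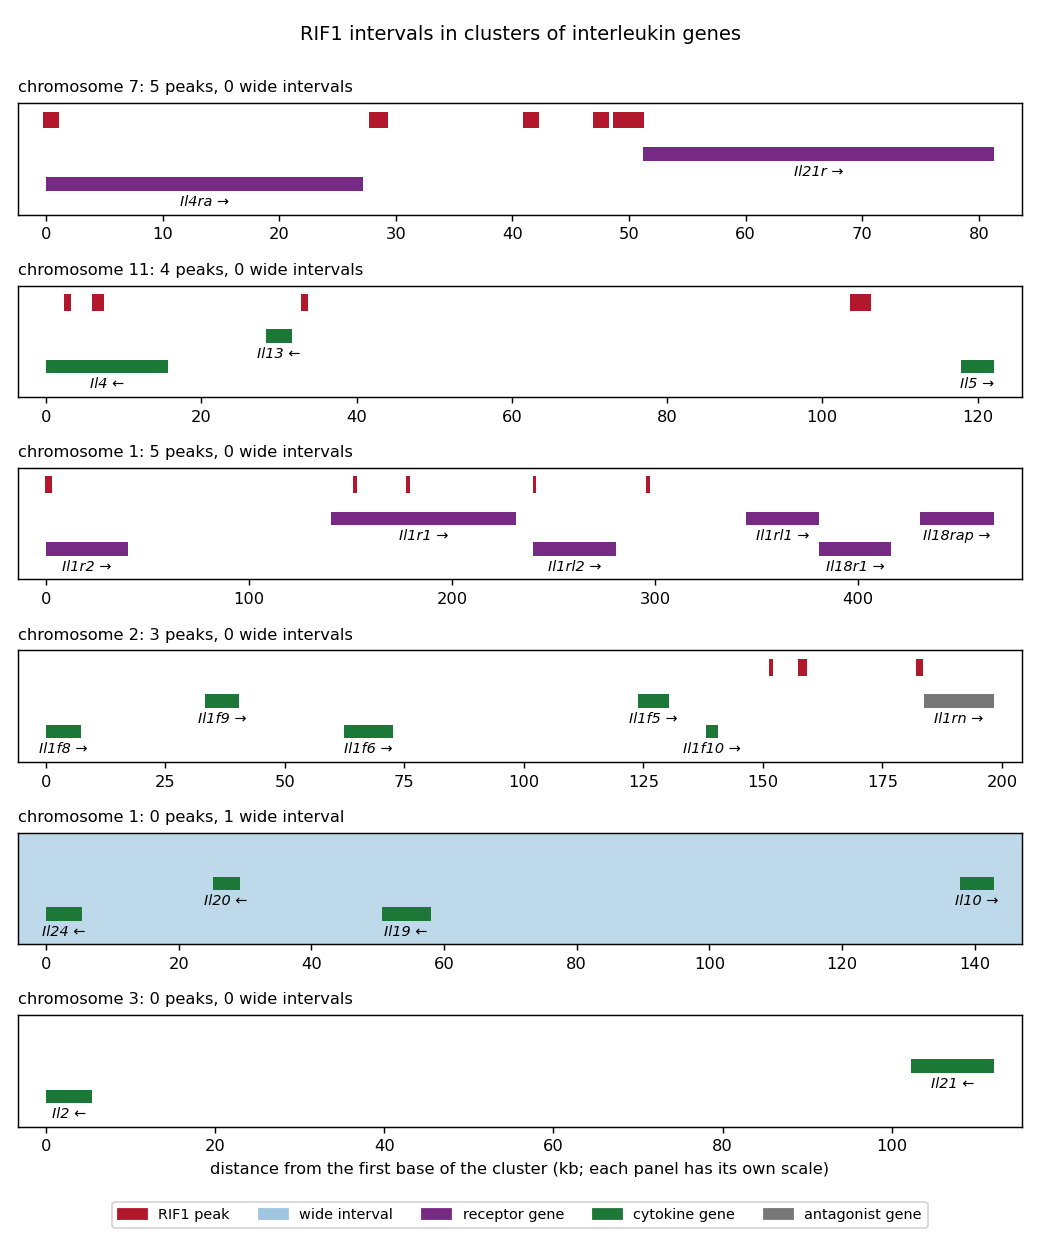
Maps of 6 clusters, with interleukin genes (arrows give the direction of transcription), peaks in red and wide intervals in blue, against the distance in kb from the first base of the cluster. Other genes are not drawn. The Il4ra and Il21r panel has 5 peaks in 81.3 kb, whereas the Il2 and Il21 panel has 0 peaks in 112 kb and the IL-10 cluster lies entirely in a wide interval.

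The promoters were then described by their CpG content, which the choice of genes did not use. The ratio of observed to expected CpG over 500 bp on each side of the 5′ end had a median of 0.21 in cytokines, 0.32 in receptors and 0.56 in all coding genes. A ratio of 0.6 or more, called CpG rich here, was reached by 1 of 40 cytokines (2.5%, Il17d at 0.92), 8 of 37 receptors (21.6%) and 46.5% of coding genes. The CpG-rich receptors were Il17ra (0.93), Il17rd (0.87), Il6ra (0.82), Il3ra (0.75), Il28ra (0.71), Il1rap (0.68), Il4ra (0.63) and Il17rb (0.61). Interleukin genes, and cytokines above all, were thus poor in CpG for coding genes.

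Over the whole annotation, RIF1 peaks were more frequent at CpG-rich starts. Outside wide intervals, where 41.8% of all coding genes had a peak at the 5′ end, the share was 71.9% of CpG-rich and 16.2% of CpG-poor genes. The interleukin genes outside wide intervals had a peak in 14 of 56 cases (25%), made up of 4 of 6 CpG-rich genes and 10 of 50 CpG-poor ones (20%). Of the 56 genes, 50 were thus CpG poor, and the CpG-rich ones are too few for a share. Among CpG-poor genes, a peak was present in 6 of 22 receptors (27.3%) and 3 of 26 cytokines (11.5%), and these shares were not tested against 16.2%. Whether CpG content underlies the lower share of the set or the difference between the classes was not tested. Exceptions stood on both sides. Il7r and Il1r2 had peaks at a ratio of 0.11, and Il17ra and Il17d had none at 0.93 and 0.92.

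**Figure D5:**
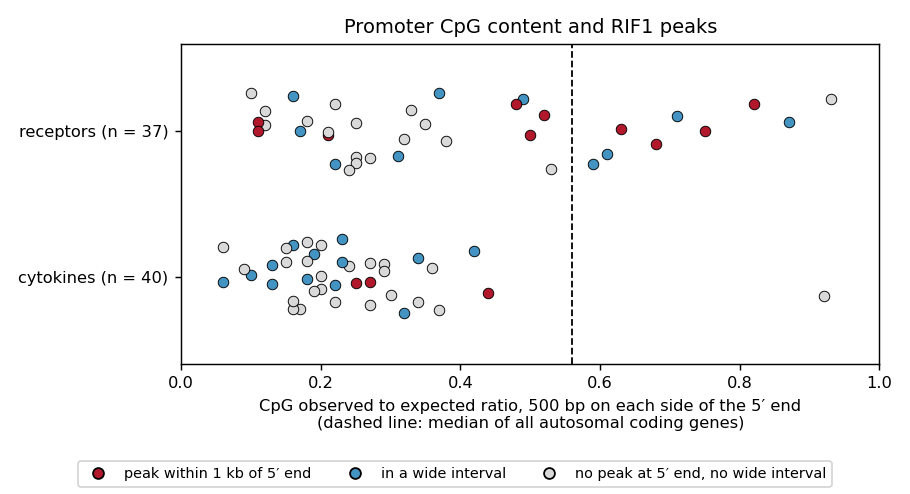
Ratio of observed to expected CpG around the 5′ end of cytokine (n = 40) and receptor genes (n = 37), with genes that have a peak at the 5′ end in red and those in wide intervals in blue. The dashed line marks the median of all autosomal coding genes (0.56), under which all cytokines but 1 and most receptors lie.

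Short motifs were searched in the 300 bases upstream of each 5′ end, on both strands, as a description. The GC box GGGCGG was present in 7 of the 14 genes with a peak at the 5′ end, in 4 of the 42 with neither such a peak nor a wide interval and in 41.2% of coding genes. In the sequences shown, it began at position -76 from the start of Il4ra and -49 from that of Il21r, and on the opposite strand at -43 from that of Il15. The TATAAA box was present in 10 of 40 cytokines, 4 of 37 receptors and 14.6% of coding genes, among them Il13, where it began at position -29. CCAAT was found in 25 of the 80 genes and in 38.7% of coding genes.

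Palindromic STAT motifs were searched with 3 or 4 free bases between TTC and GAA, the wider form being the one STAT6 prefers. That with 4 free bases was found in 10 of the 80 genes and in 6.92% of coding genes, and in 0 of the 14 with a peak at the 5′ end. Il4 held 1, which began at position -163 from its start. That with 3 was found in 8 of the 80 genes, among them Il7r and Il12rb2, and in 8.20% of coding genes. A match is not a bound site, and a missing match says nothing of the factor.

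Sequence uniqueness limits what could be listed, since the study kept only reads aligned to 1 place. Of the 31-base words in the window around each 5′ end, those found once in the mm9 genome made up 0% for Il11ra2 and 17.7% for Il11ra1, near-identical copies on chromosome 4. Their starts could thus hardly gain a peak, and the lack of one there carries no information. The next lowest were Il28b (50.9%) and Il28a (51.3%), another pair of near copies, followed by Il1f8 (59.9%). Without Il11ra1 and Il11ra2, a peak at the 5′ end was present in 10 of 35 receptors and 3 of 40 cytokines, a difference of 21.1 percentage points.

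The choice of start and window altered the number of genes. With windows of 0.1 kb, 11 genes had a peak, against 28.9% of coding genes, and with windows of 5 kb 22 had one, against 35.2%. The wider window added Il13, Il1b, Il16 and others, giving 13 receptors and 8 cytokines. Using the start of any transcript added 1 gene, for 15 in total, against 34.2% of coding genes. Receptors kept the higher share in each of these, by 19.3 (3.43 to 35.5), 15.1 (-4.74 to 33.8) and 17 (-0.454 to 34.1) percentage points.

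Genes that act with interleukins but have other names were counted in the same way. Of a list of 47 such genes, all autosomal, a peak at the 5′ end was present in 17 (against 32.2% of all coding genes). A peak over the gene was present in 18 (against 36.2%) and a wide interval over the gene in 15 (against 23.6%). The groups within the list hold few genes each, and their counts were not tested against these shares. The STAT genes had a peak at the start in 4 of 7 (among them Stat3, Stat5a and Stat6, the last being the factor activated by IL-4), the Janus kinases in 1 of 4 (Jak2) and the feedback inhibitors in 3 of 8 (Socs2, Socs4 and Socs5). Jak3, which is bound to the common gamma chain, Tyk2, Socs1 and Socs3 lay in wide intervals. Of IL-1 and Toll-like receptor signalling genes, 4 of 7 had a peak at the start (Myd88, Irak4, Traf6 and Map3k7), as did Casp1, 1 of 3 genes of IL-1 processing. Partner receptor chains had one in 3 of 10 (Csf2ra, Crlf2 and Osmr) and partner subunits or related cytokines in 1 of 8 (Osm).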

How the data were processed

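The only file used is a BED list of positions on mm9 (unit: coordinates, with no counts or scores), which the authors deposited as the calls kept from both Rif1FH replicates. Per the labels and the study's methods, ChIP and input reads were trimmed with Trim Galore 0.6.4, aligned uniquely with Bowtie 1.0.0, called with MACS2 2.2.6 (narrow and broad) and EDD (RADs), and merged with bedtools 2.27.1. The calling threshold and the use of Rif1WT samples in calling are not given in the sources used here. An antibody label names anti-CD43 beads, whereas the protocol describes anti-HA precipitation, which was followed. Unique alignment leaves repeated sequence without calls, and depth per sample is unknown.

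Intervals were split at 50 kb and compared with GENCODE M1 genes (NCBIM37, the same build) by overlap of at least 1 bp. The list was used as given, including 1 interval ending 9880 bp past the end of its chromosome. Members, classes, gene lists and alternatives were chosen with earlier results of these data known. Genes were named by rule: all with an interval, 10 chosen for their roles, and the 5 nearest to and 5 farthest from a peak among the rest. Genes named in clusters and for motifs or CpG content were chosen after their values were seen. Some genes of the marker and pathway lists are not reported here by name. No test across genes was made. Shares carry 95% Wilson intervals and differences 95% Newcombe intervals, which cover counting error only. The overlap step was tested on simulated data and checked against bedtools. Python 3.11.15, numpy 2.4.6, pysam 0.24.0, samtools 1.23.1 and bedtools 2.31.1 were used.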

Additional observations from a re-analysis of the deposited data

How the results depend on the processing

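For 8 results (the numbers of genes with a peak or wide interval at the 5′ end or over the gene, and the differences between receptors and cytokines in each), 52 comparisons with other settings were made, and 51 kept their direction and stayed within 1.5 times the number of genes or inside the Newcombe interval of the difference. The exception was the number of genes with a peak at the 5′ end under windows of 5 kb, which rose from 14 to 22, since a larger window by construction meets more peaks. The Newcombe intervals are broad (2.55 to 36.2 points for peaks at the 5′ end and 10.8 to 48.1 for peaks over the gene). All settings also draw on the same list of intervals, so staying inside one is a weak criterion. Some of the 52 comparisons could hardly have differed and are no further support. Windows of 0.1 or 5 kb are small beside wide intervals of 280 to 3600 kb. Wide intervals gave 24 genes and a difference of -5.47 points both at the 5′ end and over the gene. Leaving out genes in wide intervals could hardly alter the numbers of genes with a peak, 14 and 21. The difference between receptors and cytokines at the 5′ end ran from 13 percentage points, among promoters under a CpG ratio of 0.6, to 25.9 with genes in wide intervals left out, and that over the gene from 19.9 to 40.7. The Newcombe interval of the first included 0 under 5 of 11 settings (windows of 5 kb, starts of any transcript, peaks at or above the median width, CpG-poor promoters alone, and counting by locus) and that of the second under 0 of 7. None of these 7 left out peaks at the 5′ end, so both differences share genes. For genes with a peak over the gene and none at the 5′ end, the difference was 8.72 points, and its interval included 0 (-6.32 to 24.4). Leaving out the near-identical Il11ra genes or genes in wide intervals, CpG-poor promoters alone, and counting by locus were settings chosen after seeing the data. No paired analysis was possible because both Rif1FH replicates were merged into the intervals before deposit, and fits leaving out a replicate could not be run for the same reason. Depth is unknown, so weak occupancy cannot be told apart from none.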

Other observations

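Interleukin receptor genes on the X chromosome were outside the set and are given here as values only. Of the 5, 0 had a peak at the 5′ end and 0 lay in a wide interval. Il2rg, which encodes the common gamma chain used by the receptors for IL-2, IL-4, IL-7, IL-9, IL-15 and IL-21, had its nearest peak 5.39 kb from the 5′ end. Il13ra1, which pairs with the IL-4 receptor alpha chain on non-lymphoid cells, had 1 peak over the gene, and the edge of its nearest peak was 17.3 kb from the 5′ end. Il1rapl2, a gene of 1276 kb that is used mainly in the nervous system, also had 1. Il1rapl1 and Il13ra2 had none, with the nearest peak 2246 and 1923 kb away.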
